A study of Mus musculus with 8 samples.

Results

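The genes described here were 7 genes for taking up and handling circulating fat, Cd36, Gpihbp1, Lpl, Fabp4, Fabp5, Pparg and Lipg, out of 27179 genes in the count table. They were chosen by name, as genes known for lipid uptake at the capillary wall. All 7 were found in the table and all 7 had enough counts to be tested. The sorted cells came from female C57BL/6 mice (C57BL/6J in the study's methods) of the Eml4-Alk genotype, whose lung adenocarcinomas were started by joining the Eml4 and Alk genes with Cas9 and guide RNAs, delivered into the airways in an adenovirus. Every mouse was 18 to 22 weeks old, 11 to 12 weeks past induction, and had received 4.5 nmol of QZ1-(PEG2K) by tail vein 2 h before the lungs were taken. QZ1 is a quenched probe whose Cy5 dye lights up when a protease cuts its linker. Live cells lacking CD45 and CD11b, surface proteins of blood and myeloid cells, were sorted into a bright population, QZ1-hi, and a dim population, QZ1-lo. Each had at least 100000 cells, and 4 libraries of each were sequenced. Both populations therefore came from lungs with tumors induced in the same way, shared the probe and the gate, and were separated by probe signal. Which libraries came from the same mouse is not given in the sources used here. The cells were not sorted by cell type, so each population was a mixture.

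Circulating triglyceride is too large to cross the capillary wall and is first cut into fatty acids on its inner face. Lipoprotein lipase, the product of Lpl, is made by cells outside the vessel and is carried to that face and held there by GPIHBP1, a protein of capillary endothelial cells. Fatty acids then enter cells with the help of the membrane protein CD36, are carried in the cytoplasm by fatty acid binding proteins such as FABP4 and FABP5, and act as ligands of the nuclear receptor PPARgamma, the product of Pparg. Lipg encodes endothelial lipase, which prefers the phospholipids of high density lipoprotein. In the lung several of these genes are also known in alveolar macrophages, which clear surfactant lipid and depend on PPARgamma.

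Of the 7 genes, 2 were higher in the QZ1-hi population and none was lower. Gpihbp1 and Cd36 rose, whereas Lpl, Fabp4, Fabp5, Pparg and Lipg did not pass the test (edgeR's quasi-likelihood test, Benjamini-Hochberg adjusted over 15583 genes, threshold 0.05). Over all genes tested, 9.88% were higher in QZ1-hi, 8.21% were lower and 18.1% were called in either direction. For the same 2 genes no QZ1-hi library was as low as any QZ1-lo library, which held for 11.9% of all genes tested, and 22.6% of all genes did not overlap in either direction. The median log2 fold change of the 7 genes was 0.65, against 0.02 over all genes tested. Levels below are CPM, counts per 1e6 counts of the library after scaling with edgeR's TMM factors, and fold changes are QZ1-hi over QZ1-lo. In sorted bulk RNA, fewer cells of a type and less RNA per cell cannot be told apart.

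**Figure D1:**
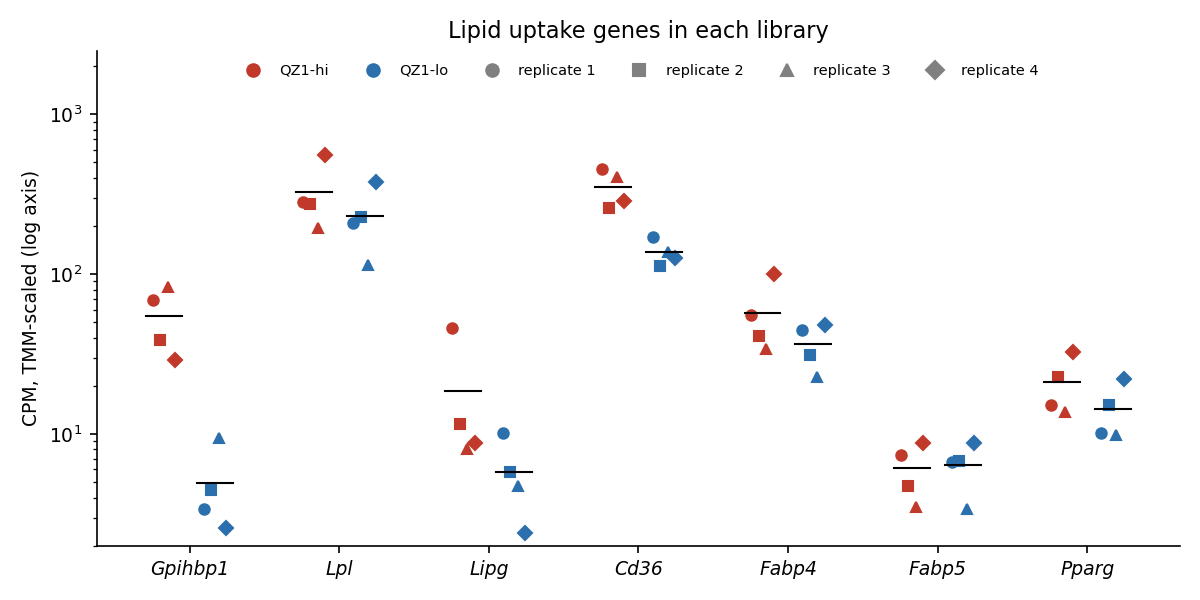
TMM-scaled CPM (log axis) of the 7 lipid uptake genes in each of the 4 QZ1-hi (red) and 4 QZ1-lo (blue) libraries, with marker shapes for replicates and black lines for group means. The red and blue points are fully apart for Gpihbp1 and Cd36 and overlap for the other genes.

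Library totals were 18380918 to 26847938 counts in QZ1-hi and 21015669 to 25382906 in QZ1-lo. Mitochondrial and ribosomal RNA took 43.7% to 65.6% of the counts in QZ1-hi and 34.0% to 53.2% in QZ1-lo, and TMM factors ran from 0.660 to 1.35. A level of 3 counts stood for 0.0894 to 0.179 CPM, which covers counting error only, and no library fell to that floor for any of the 7 genes. Endothelial markers set the populations apart: the summed level of Cdh5, Pecam1, Tek, Cldn5, Egfl7 and Emcn was 622 to 1546 CPM in QZ1-hi and 36.3 to 198 CPM in QZ1-lo, and 6 of 6 were called higher. Although the gate excluded CD45, its gene Ptprc was read at 71.4 to 222 CPM in QZ1-hi and 93.4 to 161 CPM in QZ1-lo. The summed level of 9 macrophage and myeloid markers (Marco, Siglecf, Chil3, Mrc1, Ear2, Adgre1, Cd68, Csf1r and Ptprc) was 1347 to 6450 CPM in QZ1-hi and 969 to 4051 CPM in QZ1-lo, with 0 of 9 called. Fat cell markers were near 0: Adipoq and Lep had no count in any library, and the 6 genes of that list summed to at most 5.63 CPM.

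Gpihbp1 (Entrez Gene 68453, GRCm38 chr15:75596628-75598213, plus strand) encodes the capillary anchor and carrier of lipoprotein lipase. An acidic stretch near its start is known to bind the basic surface of the lipase. The coding bases around that stretch are shown because they set Gpihbp1 apart from the rest of its protein family. They lie within 1 exon at chr15:75597060-75597152 on the plus strand, and the capitals mark an unbroken run of 11 codons for aspartate or glutamate (GAT, GAC, GAA or GAG), codons 38 to 48 of 228.
Gpihbp1 coding bases: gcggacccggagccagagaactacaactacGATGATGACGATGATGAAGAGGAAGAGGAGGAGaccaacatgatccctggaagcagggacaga

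Gpihbp1 had the largest difference of the 7 genes. It was read at 68.8, 38.5, 83.3 and 29.0 CPM in QZ1-hi replicates 1 to 4. In QZ1-lo replicates 1 to 4 it was read at 3.37, 4.47, 9.44 and 2.58 CPM. The lowest QZ1-hi library was thus above the highest QZ1-lo library. Means were 54.9 ± 25.5 CPM and 4.97 ± 3.08 CPM (SD, n = 4 each), and the log2 fold change was 3.46 (SE 0.45, 95% interval 2.49 to 4.44, adjusted p = 0.000547 by edgeR). By log2 fold change Gpihbp1 ranked 155 of 15583 genes. The order of the libraries was that of the endothelial markers: within QZ1-hi, replicates 3 and 1 were highest in both, and within QZ1-lo, replicate 3 was highest and replicate 4 lowest in both.

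Relative to the 6 endothelial markers, the level of Gpihbp1 differed between the populations by less than the spread of the libraries. The log2 level of Gpihbp1 minus the mean log2 level of those markers, taken within each library, averaged -1.16 ± 0.17 for QZ1-hi and -1.04 ± 0.25 for QZ1-lo (SD over 4 libraries each). The difference was -0.12 (exact permutation test over 70 assignments, two-sided p = 0.486, also 0.486 after adjustment over the 10 ratios computed). It was 0.02 against Pecam1 alone (exact permutation test, adjusted p = 0.886). Against the general capillary markers Cd93, Plvap, Ptprb and Kit it was 0.37 (exact permutation test, adjusted p = 0.0571). Its sign thus depended on the reference. Within the populations the pooled SD of log2 Gpihbp1 was 0.76 alone, 0.22 relative to the endothelial markers and 0.15 relative to the general capillary markers, the smallest of 10 marker lists compared. The difference of 0.37 against the general capillary markers was larger than that SD of 0.15. Genes with the profile most like Gpihbp1 over the 8 libraries, by root mean square difference of log2 CPM centred on each gene's mean, were Cdh5 (0.18), Sema3g (0.18) and Pecam1 (0.20).

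**Figure D2:**
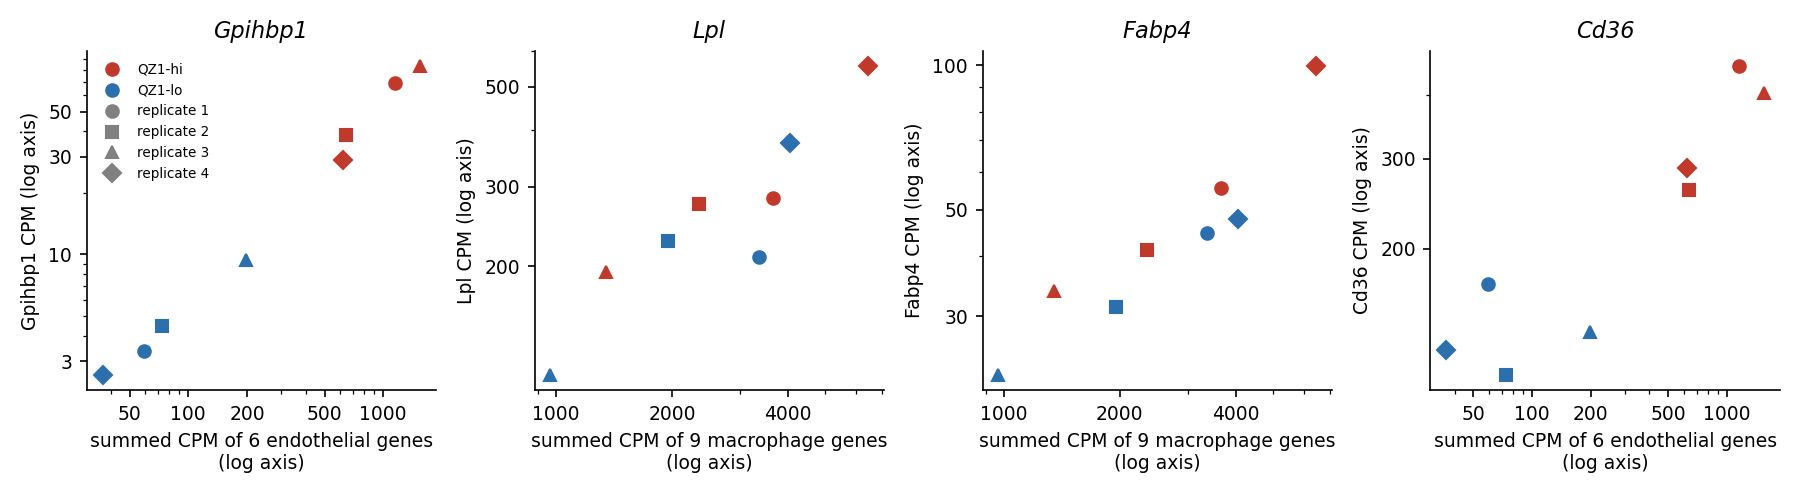
TMM-scaled CPM of Gpihbp1, Lpl, Fabp4 and Cd36 in the 8 libraries against the summed CPM of 6 endothelial or 9 macrophage markers in the same library (all axes log). Gpihbp1 is ordered by the endothelial sum across both populations, and Cd36 lies in 2 groups by population. Lpl and Fabp4 are lowest and highest where the macrophage sum, mostly Chil3, is lowest and highest.

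Lpl (Entrez Gene 16956, GRCm38 chr8:68880491-68906934, plus strand), the lipase that GPIHBP1 carries, was abundant in both populations. QZ1-hi replicates 1 to 4 had 283, 274.5, 194 and 555 CPM. QZ1-lo replicates 1 to 4 had 209.9, 227, 115 and 375 CPM. The populations overlapped, and in each of them replicate 4 was highest and replicate 3 lowest. Means were 327 ± 158 CPM and 232 ± 108 CPM (SD, n = 4 each), with a log2 fold change of 0.50 (SE 0.36, 95% interval -0.30 to 1.29, edgeR adjusted p = 0.422), and the value was 0.13 without QZ1-hi replicate 4 and -0.03 with scaling by library size alone. Replicate 4 of each population also had the highest macrophage marker sum, 6450 CPM in QZ1-hi and 4051 CPM in QZ1-lo, and replicate 3 the lowest, 1347 and 969 CPM. Most of this sum was Chil3, at 4987, 3080, 794 and 570 CPM in the same order. Each marker was highest in replicate 4. In QZ1-hi Siglecf, Adgre1 and Ptprc were lowest in replicate 1, as was Siglecf in QZ1-lo, and the others were lowest in replicate 3.

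Within the populations, the pooled SD of log2 Lpl fell from 0.67 alone to 0.14 relative to the macrophage markers, the smallest of the 10 lists. Relative to the endothelial markers it was 1.49. The genes with the profile most like Lpl were Atp6v0d2 (root mean square difference 0.13), Ccl6 (0.14) and F10 (0.15). Relative to the endothelial markers, log2 Lpl was 1.43 ± 1.21 in QZ1-hi and 4.56 ± 1.72 in QZ1-lo (SD, n = 4 each). The difference was -3.13 (exact permutation test, two-sided p = 0.0571, adjusted p = 0.0714). The mean log2 level of those markers itself was 3.64 higher in QZ1-hi. A gene equal in both populations would thus read about 3.64 lower. Such a p therefore does not separate a change of the gene from the rise of the markers. The log2 ratio of Gpihbp1 to Lpl, the carrier over its cargo, was -2.59 ± 1.30 in QZ1-hi and -5.60 ± 1.48 in QZ1-lo (SD, n = 4 each), a difference of 3.01 (exact permutation test, p = 0.0571, adjusted p = 0.0714). Its lowest QZ1-hi value, -4.26, lay below its highest QZ1-lo value, -3.60. Of the exonic stretches of 50 bases in Lpl, 1.81% also occurred in other genes.

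Lipg (Entrez Gene 16891), endothelial lipase, rested on 1 library. Its level was 46.2, 11.6, 8.04 and 8.82 CPM in QZ1-hi replicates 1 to 4. In QZ1-lo replicates 1 to 4 it was 10.1, 5.78, 4.70 and 2.41 CPM. QZ1-hi replicate 1 stood far above the other QZ1-hi libraries, and QZ1-lo replicate 1 was highest of its population and overlapped QZ1-hi. Means were 18.7 ± 18.4 CPM and 5.76 ± 3.24 CPM (SD, n = 4 each), and the log2 fold change of 1.69 (SE 0.59, 95% interval 0.40 to 2.99) missed the threshold (edgeR adjusted p = 0.0725). Without QZ1-hi replicate 1 it was 0.71 (edgeR adjusted p = 0.306). With no filter on low counts the value was 1.69 with an edgeR adjusted p of 0.0477, and without QZ1-lo replicate 1 it was 2.12 with an edgeR adjusted p of 0.0497, so the call turned on these choices.

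The spread of Lipg was not made smaller than 0.84 by any of the 10 marker lists (pooled SD of log2 level, 1.02 alone, 0.84 relative to alveolar type 2 markers and 1.18 relative to endothelial markers). Its nearest profiles were also more distant than those of the other genes: Tnc at 0.36, Tnfsf11 at 0.40 and S1pr3 at 0.42. The log2 ratio of Lpl to Lipg was 4.44 ± 1.38 in QZ1-hi and 5.38 ± 1.32 in QZ1-lo (SD, n = 4 each), a difference of -0.95 that lay within the spread of the libraries (exact permutation test, two-sided p = 0.4, adjusted p = 0.444).

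Cd36 (Entrez Gene 12491, GRCm38 chr5:17781690-17888747, minus strand) encodes a membrane protein that takes up long-chain fatty acids and oxidized lipoproteins. It is made by capillary endothelial cells and by macrophages, among others. The 250 bases before the start that RefSeq lists (chr5:17835897-17836146, minus strand, GRCm38.p6) are shown because Cd36 rose and because they hold a short tandem repeat. This start lies inside the gene span given above, which on the minus strand begins at 17888747. Bases before that farther end of the gene were not searched. The capitals mark GGGCGG, the core letters known to bind Sp1, which occurred at 2 places within a 16-base repeat that starts 111 and 95 bases before the start.
Cd36 upstream bases: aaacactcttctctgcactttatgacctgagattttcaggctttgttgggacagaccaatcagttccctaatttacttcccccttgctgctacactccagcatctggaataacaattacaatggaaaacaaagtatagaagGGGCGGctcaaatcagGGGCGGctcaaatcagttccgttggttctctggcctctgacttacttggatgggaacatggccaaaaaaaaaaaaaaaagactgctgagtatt

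Searched on both strands, GGGCGG was found in 32.7% of 32851 promoter windows in RefSeq's table. The window held no TATAAA, found in 12.4% of windows, and no direct repeat of AGGTCA with 1 base of any kind between the copies, the DR1 element that PPAR and RXR pairs are known to bind, which was found in 0.0335% of windows. Of the 3 windows of Pparg, 2 held GGGCGG, 1 held TATAAA and 0 held the direct repeat. These are matches of letters in short windows only.

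Cd36 was higher in QZ1-hi than in QZ1-lo, with high counts in every library. QZ1-hi replicates 1 to 4 had 456, 260.7, 403 and 287 CPM. QZ1-lo replicates 1 to 4 had 170, 113, 137 and 127 CPM. The populations were fully apart. Means were 352 ± 93.1 CPM and 137 ± 24.3 CPM (SD, n = 4 each), with a log2 fold change of 1.36 (SE 0.20, 95% interval 0.93 to 1.80, edgeR adjusted p = 0.000876) and rank 1248 of 15583.

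The log2 fold change of Cd36 was below that of each of the 6 endothelial markers, whose median was 3.39. Relative to those markers, log2 Cd36 was 1.61 ± 0.37 in QZ1-hi and 3.91 ± 1.06 in QZ1-lo (SD, n = 4 each), a difference of -2.30 with no overlap (two-sided exact permutation p = 0.0286, the least possible with 4 against 4 libraries, adjusted p = 0.0714). The QZ1-lo libraries thus held more Cd36 for their endothelial marker level than the QZ1-hi libraries did, though the adjusted value missed the threshold. In mean log2 level the markers themselves were 3.64 higher in QZ1-hi, and Cd36 alone was 1.34 higher. Within the populations the pooled SD of log2 Cd36 was 0.32 alone, 0.80 relative to the endothelial markers, 0.83 relative to the macrophage markers and 0.23 relative to the alveolar type 1 markers, the smallest of the 10 lists. That list fell in QZ1-hi (5 of 5 called lower, summed level 536 to 860 CPM in QZ1-hi and 1159 to 1412 CPM in QZ1-lo), opposite to Cd36. The nearest profiles were Slco2a1, a prostaglandin transporter (0.14), Nrp1, a co-receptor for VEGF and semaphorins (0.16), and Ikbip (0.17).

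Several cell type lists rose between the populations in the same direction as Gpihbp1 and Cd36. Within the populations, the pooled SD of log2 Cd36 was 0.32 alone and larger relative to the capillary, aerocyte, pericyte, fibroblast and mesothelial lists. A larger SD does not show whether Cd36 followed a list in part. In QZ1-hi, replicates 1 and 3 were highest in both Cd36 and the endothelial marker sum. In QZ1-lo, Cd36 was highest in replicate 1 and the endothelial marker sum in replicate 3. General capillary markers summed to 635 to 1375 CPM in QZ1-hi and 80.2 to 211 CPM in QZ1-lo, with 4 of 4 higher. Markers of aerocytes, the flat gas-exchange capillary cells, summed to 219 to 402 CPM and 48.2 to 127 CPM, with 3 of 4 higher and Car4 not called (log2 fold change 0.99, edgeR adjusted p = 0.0567). Pericyte markers (4 of 6 higher, 186 to 324 CPM and 19.9 to 59.2 CPM), fibroblast markers (6 of 7 higher, 1716 to 2805 CPM and 556 to 1006 CPM) and mesothelial markers (4 of 4 higher, 38.4 to 268 CPM and 5.93 to 36.5 CPM) rose as well. The mesothelial sum of 268 CPM was QZ1-hi replicate 2, and the other QZ1-hi libraries were at 38.4 to 66.1 CPM. Of these markers Msln, Upk3b and Lrrn4 overlapped between the populations, and their calls held in 10, 10 and 11 of 16 alternatives. Ciliated cell markers fell (3 of 3 lower, 18.0 to 51.4 CPM and 95.5 to 185 CPM). Alveolar type 2 markers were mixed, with Sftpc higher and Nkx2-1 lower among 7 (summed level 5048 to 9317 CPM and 3770 to 5971 CPM). The part of these cell types in the rise of Gpihbp1 and Cd36 was not tested.

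**Figure D3:**
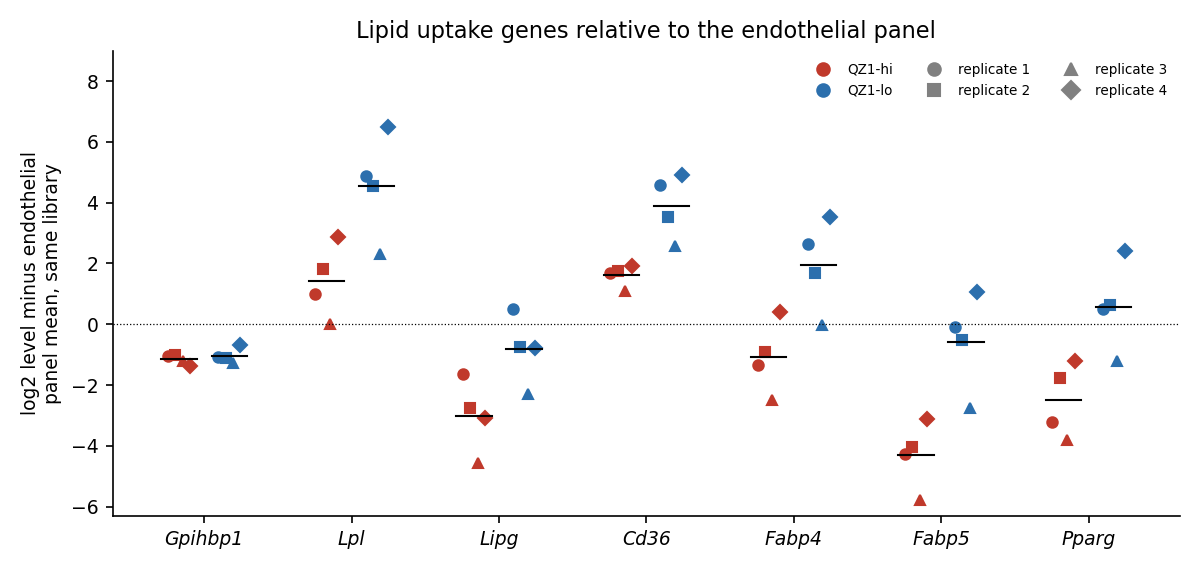
Log2 CPM of each lipid uptake gene minus the mean log2 CPM of 6 endothelial markers in the same library, for the 4 QZ1-hi (red) and 4 QZ1-lo (blue) libraries, with black lines for means and a dotted line at 0. Gpihbp1 lies between -1.38 and -0.68 in all libraries, whereas the means of the other 6 genes are lower in QZ1-hi by 2.18 to 3.72 log2 units. The marker mean itself is 3.64 log2 units higher in QZ1-hi.

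Fabp4 (Entrez Gene 11770, GRCm38 chr3:10204088-10208576, minus strand) and Fabp5 (Entrez Gene 16592, GRCm38 chr3:10012548-10016607, plus strand) lie near each other on chromosome 3 and encode the fatty acid binding proteins known from fat cells and from skin. Over the coding bases, 248 of 399 aligned positions were identical (62.2%), and the longest run they shared was 12 bases. Matching stretches of 90 coding bases are shown to let the paralogs be compared base by base. They lie at chr3:10204563-10205322 on the minus strand for Fabp4 and chr3:10015492-10016074 on the plus strand for Fabp5, each crossing an intron that is left out, and capitals mark the 26 positions at which they differ.
Fabp4 coding bases: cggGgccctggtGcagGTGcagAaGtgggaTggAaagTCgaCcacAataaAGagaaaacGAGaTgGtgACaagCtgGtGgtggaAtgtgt
Fabp5 coding bases: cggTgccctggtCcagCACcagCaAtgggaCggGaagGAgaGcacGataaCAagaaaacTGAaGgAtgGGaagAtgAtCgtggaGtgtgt
None of the exonic stretches of 50 bases in Fabp4 occurred in another gene. For Fabp5, 21.1% (198 of 938) also occurred in 5 other genes, of which the predicted gene Gm6166 shared the largest number, so the counts of Fabp5 are less certain.

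Fabp4 was read at 55.6, 41.3, 33.8 and 99.5 CPM in QZ1-hi replicates 1 to 4. In QZ1-lo replicates 1 to 4 it was read at 44.7, 31.4, 22.7 and 47.8 CPM. The populations overlapped, with replicate 4 highest and replicate 3 lowest in both, as for Lpl. Means were 57.5 ± 29.4 CPM and 36.6 ± 11.7 CPM (SD, n = 4 each), and the log2 fold change was 0.65 (SE 0.33, 95% interval -0.07 to 1.37, edgeR adjusted p = 0.221). It was 0.27 without QZ1-hi replicate 4 and 0.11 with scaling by library size alone.

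Fabp5 was low in both populations. Its level was 7.42, 4.74, 3.47 and 8.76 CPM in QZ1-hi replicates 1 to 4. In QZ1-lo replicates 1 to 4 it was 6.68, 6.75, 3.40 and 8.72 CPM. The populations covered almost the same range. Means were 6.10 ± 2.42 CPM and 6.39 ± 2.20 CPM (SD, n = 4 each), and the log2 fold change was -0.07 (SE 0.35, 95% interval -0.84 to 0.71, edgeR adjusted p = 0.931).

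The balance between these paralogs differed somewhat between the populations. The log2 ratio of Fabp4 to Fabp5 was 2.90, 3.12, 3.28 and 3.50 in QZ1-hi replicates 1 to 4. In QZ1-lo replicates 1 to 4 it was 2.74, 2.21, 2.73 and 2.45. The populations did not overlap, but the nearest values, 2.90 and 2.74, were close. The difference was 0.67 (exact permutation test, two-sided p = 0.0286), and after adjustment over the 10 ratios it missed the threshold (adjusted p = 0.0714).

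Both paralogs followed the macrophage markers more closely than any other of the 10 lists. The pooled SD within populations fell from 0.59 to 0.29 for log2 Fabp4 and from 0.59 to 0.36 for log2 Fabp5, whereas relative to endothelial markers it was 1.37 and 1.38. The nearest profiles of Fabp4 were Myo5a, Slc7a2 and the integrin gene Itgax (each 0.15). Those of Fabp5 were Cd52 (0.15), Spaca6 (0.20) and Morrbid (0.20). Relative to the endothelial markers, log2 Fabp4 was -2.50 to 0.40 in QZ1-hi and -0.02 to 3.52 in QZ1-lo, with means that differed by -3.05 (exact permutation test, p = 0.0571, adjusted p = 0.0714). Fabp5 had the widest such difference, -3.72, from -4.29 ± 1.11 to -0.57 ± 1.60 (SD, n = 4 each), with no overlap (exact permutation test, p = 0.0286, adjusted p = 0.0714). Its own mean log2 level differed by only -0.08, so this difference was mostly the 3.64 log2 rise of the markers. The value for Fabp4 holds the same rise.

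Pparg (Entrez Gene 19016, GRCm38 chr6:115360951-115490399, plus strand) encodes the nuclear receptor that fatty acids activate and that is known to drive Fabp4, Cd36 and Lpl in fat cells and macrophages. QZ1-hi replicates 1 to 4 had 15.2, 22.8, 13.7 and 32.4 CPM. QZ1-lo replicates 1 to 4 had 10.1, 15.1, 9.84 and 22.0 CPM. The populations overlapped, and in each of them the order from low to high was replicate 3, 1, 2, 4. Means were 21.01 ± 8.54 CPM and 14.3 ± 5.71 CPM (SD, n = 4 each), and the log2 fold change was 0.56 (SE 0.32, 95% interval -0.15 to 1.27, edgeR adjusted p = 0.289). It was 0.30 without QZ1-hi replicate 4 and 0.04 with scaling by library size alone. The pooled SD within populations fell from 0.56 to 0.26 relative to the macrophage markers and was 1.35 relative to the endothelial markers. The nearest profiles were Adcy3 (0.12), Ncoa4 (0.12) and Lyz1 (0.14). Relative to the endothelial markers the difference in log2 Pparg was -3.08 (exact permutation test, p = 0.0571, adjusted p = 0.0714). For Lipg the same difference was -2.18 (exact permutation test, p = 0.0571, adjusted p = 0.0714). As for Lpl, both differences hold the 3.64 log2 rise of the markers themselves.

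Lpl, Fabp4, Fabp5 and Pparg thus shared 1 pattern over the libraries, in which the spread was smallest relative to the macrophage markers, and Gpihbp1 had another, in which it was smallest relative to capillary markers. The part of macrophage RNA in these 4 genes was not tested.

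**Figure D4:**
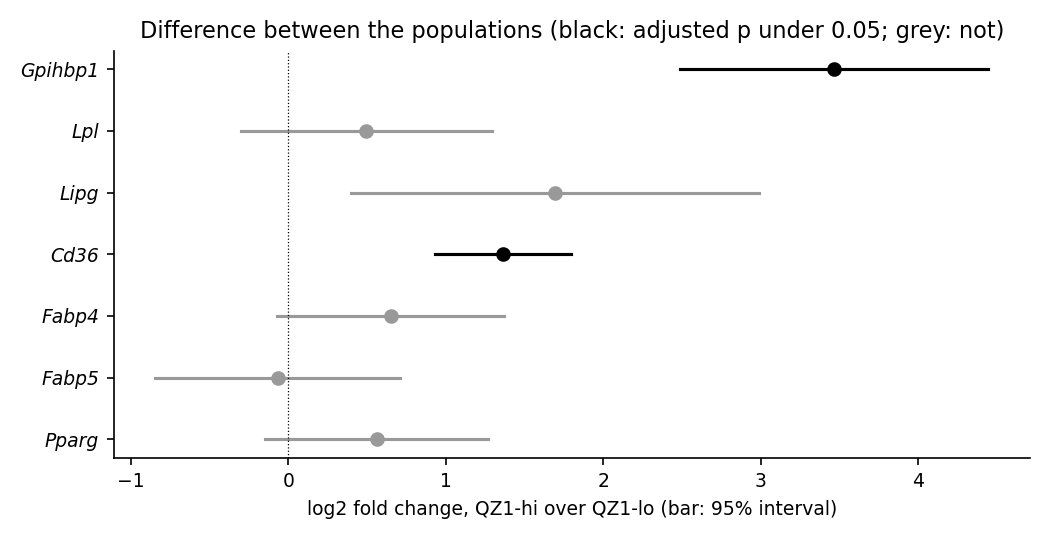
Log2 fold change of QZ1-hi over QZ1-lo for the 7 lipid uptake genes, with bars for the 95% interval (edgeR, 4 against 4 libraries), black where the adjusted p is under 0.05 and grey where it is not. The intervals of Gpihbp1 (2.49 to 4.44) and Cd36 (0.93 to 1.80) lie above 0 and do not touch each other.

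Compared per length of exon, the 7 genes fell into an upper and a lower set in QZ1-hi. Cd36 (100.1 ± 26.5 CPM per kb), Lpl (79.4 ± 38.3), Gpihbp1 (66.4 ± 30.8) and Fabp4 (64.2 ± 32.8) formed the upper set, with single libraries from 35.0 to 135 CPM per kb. Pparg (8.84 ± 3.59), Fabp5 (6.18 ± 2.45) and Lipg (4.93 ± 4.87) formed the lower set, from 2.12 to 13.6 CPM per kb (SD, n = 4 for each gene). Neighbours within a set overlapped, and the sets did not. In QZ1-lo the order by mean was Lpl (56.3 ± 26.2), Fabp4 (40.9 ± 13.1), Cd36 (38.9 ± 6.93), Fabp5 (6.47 ± 2.23), Gpihbp1 (6.01 ± 3.73), Pparg (6.00 ± 2.40) and Lipg (1.52 ± 0.855). Gpihbp1 was therefore in the upper set in QZ1-hi and beside Fabp5 and Pparg in QZ1-lo, where these 3 overlapped. Lipg was below every other gene in QZ1-lo, at 0.638 to 2.68 CPM per kb.

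Around these genes, 82 further genes of the pathway were read in 8 lists, of which 67 could be tested. Of these, 12 were higher in QZ1-hi, 3 were lower and 52 did not pass the test, with a median log2 fold change of 0.16 against 0.02 over all genes tested. The shares are to be read against 9.88% higher and 8.21% lower over all genes. Scaling by library size alone, which moved the median of all genes to -0.44, gave 5 higher and 7 lower, and the direction of none of the 15 called genes turned. Those called under every alternative that tested them were 7 of the 15: Lrp1, Scarb1, Meox2, Aplnr, Acsl3, Liph and Plin5.

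**Figure D5:**
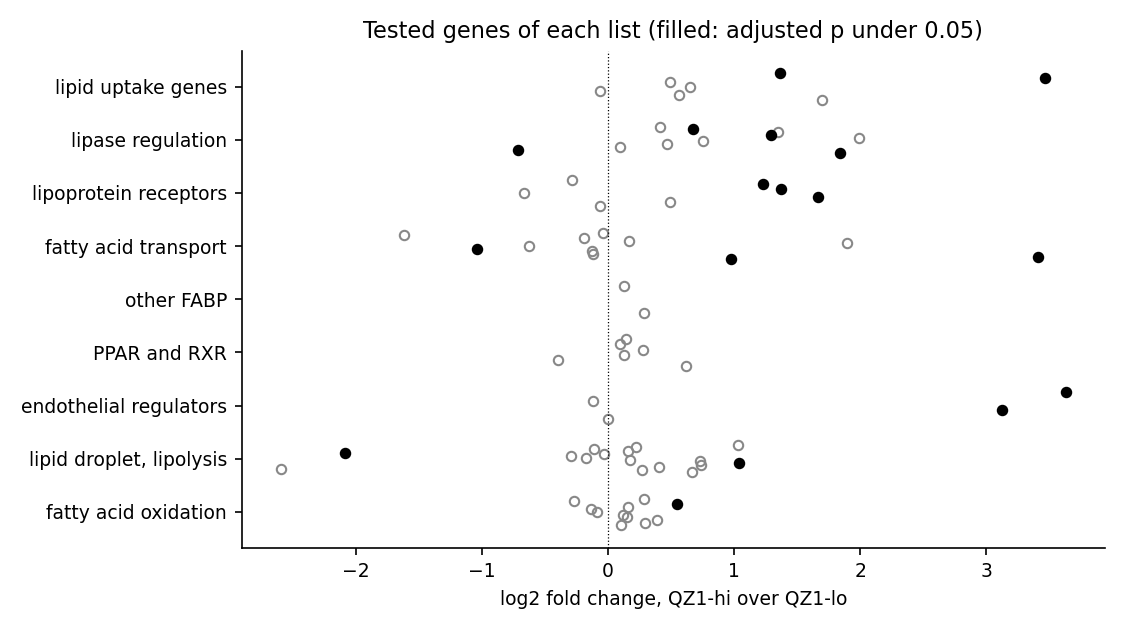
Log2 fold change of QZ1-hi over QZ1-lo for each tested gene (points) of the 7 lipid uptake genes and of 8 pathway lists, filled where the edgeR adjusted p is under 0.05. Filled points lie on both sides of 0 in 3 lists, and the PPAR and RXR list and the other FABP list have none.

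Among 14 regulators and relatives of the lipases, 10 were tested, of which 3 were higher and 1 was lower. Angptl4, an inhibitor of lipoprotein lipase, was 20.7 ± 2.38 CPM in QZ1-hi and 13.0 ± 3.17 CPM in QZ1-lo (SD, n = 4 each), with a log2 fold change of 0.67 (edgeR adjusted p = 0.0315). Apoc1, an apolipoprotein that slows the lipase, rose by 1.30 (edgeR adjusted p = 0.0214), and Pla1a, a phosphatidylserine lipase, by 1.84 (edgeR adjusted p = 0.0440), both on the log2 scale. Liph, a lipase that makes lysophosphatidic acid, fell by 0.71 (edgeR adjusted p = 0.0101). The calls of Angptl4, Apoc1 and Pla1a were each lost with scaling by library size alone and on leaving out single libraries, with edgeR adjusted p values up to 0.638 for Angptl4, 0.158 for Apoc1 and 0.119 for Pla1a. The libraries concerned were QZ1-hi replicates 2, 3 and 4 and QZ1-lo replicates 1, 2 and 3 for Angptl4, QZ1-hi replicates 1 and 2 and QZ1-lo replicate 4 for Apoc1, and QZ1-hi replicates 1, 2 and 3 and QZ1-lo replicates 1, 2 and 4 for Pla1a. Lmf1, which folds the lipases in the cell, had a log2 fold change of 0.75 (edgeR adjusted p = 0.109), and Apoc2, the activator of lipoprotein lipase, 1.99 (edgeR adjusted p = 0.0972). Apoc3 and Apoa5, apolipoproteins known from the liver, had no counts.

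Of 7 lipoprotein receptors, 3 were higher and none was lower. Scarb1, the receptor for high density lipoprotein, rose from 20.6 ± 4.32 CPM to 65.3 ± 17.5 CPM (SD, n = 4 each; log2 fold change 1.67, edgeR adjusted p = 0.000510). Lrp1, a large scavenging receptor, rose from 204 ± 51.7 CPM to 527 ± 99.8 CPM (log2 fold change 1.37, edgeR adjusted p = 0.0011). Vldlr, the receptor for very low density lipoprotein, rose by 1.23 (edgeR adjusted p = 0.00544), a call that was lost with scaling by library size alone (edgeR adjusted p = 0.0690).

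Among the fatty acid transport proteins and acyl-CoA synthetases, 11 of 12 were tested, 2 were higher and 1 was lower, with a median log2 fold change of -0.12. Acsl6 was 2.84 ± 1.91 CPM in QZ1-hi and 0.260 ± 0.224 CPM in QZ1-lo (SD, n = 4 each; log2 fold change 3.41, edgeR adjusted p = 0.0203). It was at 0 in the lowest QZ1-lo library, and without QZ1-hi replicate 1 or 2 the edgeR adjusted p was 0.0542 or 0.0749. Mfsd2a, a transporter of lysophosphatidylcholine, rose by 0.98 (edgeR adjusted p = 0.0326), a call lost with scaling by library size alone (edgeR gave 0.341) and on leaving out any 1 of 6 libraries, all but QZ1-hi replicate 4 and QZ1-lo replicate 1. Acsl3, which activates fatty acids at lipid droplets, fell by 1.03 (edgeR adjusted p = 0.0112). Slc27a1, Slc27a3 and Slc27a4, fatty acid transport proteins, had log2 fold changes of -0.04, -0.19 and 0.16, and none of them was called. Of the same family, Slc27a2 was lower in every QZ1-hi library (log2 fold change -1.61, edgeR adjusted p = 0.127) and Slc27a6 higher (log2 fold change 1.89, edgeR adjusted p = 0.184), but both were under 2 CPM and neither passed the test.

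Of 5 genes known to regulate fatty acid transport in endothelium, 4 were tested and 2 were higher. Meox2, a transcription factor known to act with Tcf15 on Cd36 and Lpl in heart capillaries, was 3.05 ± 1.78 CPM in QZ1-hi and 0.237 ± 0.192 CPM in QZ1-lo (SD, n = 4 each; log2 fold change 3.63, edgeR adjusted p = 0.00952). Tcf15 was too low to test, with 48 counts in all over QZ1-hi and 17 over QZ1-lo. Aplnr, the apelin receptor, rose by 3.12 on the log2 scale (edgeR adjusted p = 0.00779). Foxo1 and Vegfb did not pass the test, with log2 fold changes of -0.00 and -0.12.

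The remaining lists held few calls. None of the 6 tested genes for other PPAR receptors, RXR receptors and PPARgamma coactivators was called: Ppara, Ppard, Rxra, Rxrb, Ppargc1a and Ppargc1b had log2 fold changes from -0.39 to 0.62. Of 8 other fatty acid binding protein genes only Fabp1 and Fabp3 could be tested, and neither was called. Of 16 tested genes of lipid droplets and lipolysis, Lipe, the hormone-sensitive lipase, was higher (log2 fold change 1.04, edgeR adjusted p = 0.00505, and 0.155 with scaling by library size alone) and Plin5, which couples droplets to mitochondria, was lower (log2 fold change -2.08, edgeR adjusted p = 0.00437). Of 11 tested genes of fatty acid oxidation, Cpt2, the inner carnitine transferase of mitochondria, was higher (log2 fold change 0.55, edgeR adjusted p = 0.0416), a call lost in 9 of 16 alternatives, with an edgeR adjusted p of 0.802 at most: scaling by library size alone, no filter on low counts, and leaving out any library but QZ1-hi replicate 4.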

How the data were processed

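RNA from sorted QZ1-hi and QZ1-lo lung cells was measured in 8 libraries made with a stranded total RNA kit. The authors deposited raw counts per gene for 27179 Entrez Gene identifiers, counted with Rsubread. The submitters' processing notes name the build mm10 and DESeq2. The aligner, annotation and strand setting are not given in the sources used here. A symbol was found for 25275 identifiers. Counts were fitted in R 4.3.3 with edgeR 4.0.16 (TMM, filterByExpr with a minimum count of 10 and minimum total of 15, quasi-likelihood test between the populations, Benjamini-Hochberg over 15583 genes, threshold 0.05). SEs were obtained from the fold change and its F statistic. The common dispersion was 0.113. The edgeR p values set the difference between the populations against the spread between these libraries. Ratios within a library used log2 CPM with a prior count of 0.5 and two-sided exact permutation tests over 70 assignments, whose smallest p is 0.0286, adjusted over 10 ratios. The procedure was tested on simulated data, in which every gene had the common dispersion and changes took a few set sizes. The rates found need not hold for the genes above. Of 199 changed genes in the simulation, edgeR called 115, DESeq2 123 and limma 115. Unchanged genes called were 4, 16 and 4. A gene that was not called may therefore still differ.

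The 7 genes, the pathway and marker lists and the rule for named genes (all 7, up to 3 called genes of each list and direction, and the 3 nearest profiles) were chosen with earlier results of these data known. Other list genes named were chosen after their values were seen, as was the comparison of spreads relative to 10 marker lists. Exon lengths, coding bases and shared stretches of 50 bases came from GRCm38 with GENCODE M21, restricted for length to transcripts linked to RefSeq mRNA, and promoter windows from RefSeq (GRCm38.p6), which held 2 of the 7 genes. The alternatives were DESeq2 1.42.0, limma 3.58.1 (voom with quality weights), DESeq2 size factors, library size only, no filter, a stricter filter of 10 counts in each library, robust shrinkage, removal of mitochondrial and ribosomal RNA genes, each library left out, a prior count of 2 and other reference genes.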

Additional observations from a re-analysis of the deposited data

Results flagged for a closer look

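Lipg in QZ1-hi replicate 1, at 46.2 CPM, lay far from the other QZ1-hi libraries, which were at 8.04 to 11.6 CPM. The gap to the nearest of them was 0.908 of the range of the population. Of 34 sets of 4 libraries examined this was the single one past Dixon's limit, and chance passes it in about 1 of 20 sets. Its counts were 1091, against 139 to 234 in the other QZ1-hi libraries. Without it the log2 fold change of Lipg was 0.71 (edgeR adjusted p = 0.306).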

How the results depend on the processing

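Cd36 (log2 fold change 0.94 to 1.49) and Gpihbp1 (3.08 to 3.98) were called higher under all 16 alternatives, DESeq2 and limma included. Scaling by library size alone moved the median of all genes from 0.02 to -0.44, with 882 genes higher and 2509 lower over the table and 5 higher and 7 lower among the pathway lists, and turned Lpl to -0.0268. Leaving out each library in turn gave 1136 to 1506 genes higher, 938 to 1201 lower and 6 to 12 pathway genes higher (7 without QZ1-hi replicate 1, 6 without QZ1-hi replicate 2). In the same fits Fabp5 ran from -0.27 to 0.12 and turned without QZ1-hi replicate 2 (0.02), QZ1-hi replicate 3 (0.08) or QZ1-lo replicate 4 (0.12), Lipg ran from 0.71 to 2.12, and Lpl, Fabp4 and Pparg were lowest without QZ1-hi replicate 4 (0.13, 0.27 and 0.30). Lipg passed the threshold with no filter on low counts (1.69) and without QZ1-lo replicate 1 (2.12). Relative to the endothelial markers, leaving out a library gave -2.74 to -1.96 for Cd36, -3.88 to -2.49 for Lpl, -3.71 to -2.53 for Fabp4, -4.45 to -3.17 for Fabp5, -3.69 to -2.48 for Pparg and, for the log2 ratio of Fabp4 to Fabp5, 0.56 to 0.77. Without QZ1-lo replicate 3 these reached an adjusted p of 0.0476 (exact permutation test). All of them but the ratio of Fabp4 to Fabp5 hold the rise of the endothelial markers themselves. Gpihbp1 turned sign against Pecam1 alone (0.018) and against the general capillary markers (0.37). Where a cause for these changes is not given by the setting itself, the cause was not tested. No paired analysis was possible because neither the labels nor the study's methods give which libraries came from the same mouse, and replicate numbers follow only the order of deposit. The tests therefore treat the populations as independent, and how a pairing would change the calls was not tested. Gpihbp1, Fabp5 and Lipg rested on as few as 63, 60 and 59 counts in a library.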

Other observations

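In both populations replicate 4 had the highest Lpl, Fabp4, Fabp5 and Pparg and the highest macrophage marker sum (6450 CPM in QZ1-hi and 4051 CPM in QZ1-lo), and replicate 3 had the lowest of each (1347 and 969 CPM for the sum). The endothelial marker sum had the opposite order at the ends, at 622 and 36.3 CPM in replicate 4 and 1546 and 198 CPM in replicate 3. Most of the macrophage sum was Chil3. In QZ1-hi Siglecf, Adgre1 and Ptprc were lowest in replicate 1, as was Siglecf in QZ1-lo. Lipg was highest in replicate 1 of both populations, at 46.2 and 10.1 CPM, and Cd36 likewise, at 456 and 170 CPM. Replicate numbers follow the order of deposit. Whether libraries of the same number came from the same mouse is not given in the sources used here and was not tested.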
